A study of Mus musculus with 5 samples.

Results

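Among single CD3+ T cells sorted from mouse brain after stroke, the cells with Cd4 and without Cd8 were divided by 5 genes of regulatory and helper T cells, Maf, Icos, Nrp1, Ikzf2 and Tnfrsf18. A cell was CD4-gated when its Cd4 score was above 0 and the mean of its Cd8a and Cd8b1 scores was at or below 0, which held for 146 of 692 cells (21.1%). Within the gate, 84 cells had a mean score of the 5 split genes above 0 and are called high cells, and 62 cells at or below 0 are called low cells. Such a gate marks out values of a score and does not detect transcripts, and the split genes are known from an earlier look at these data to separate CD4-gated from CD8-gated cells.

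All mice were wildtype C57BL/6 animals with a stroke made by photothrombosis, the light-driven clotting of vessels in the cortex, and the cells came from the hemisphere on the side of the stroke at day 14. The trained group (3 samples) had access to running wheels from day 2, and the untrained group (2 samples) did not train. Cells had been stained for CD45 and CD3, sorted 1 per well into plates and sequenced by SORT-seq, which gives each well its own barcode. The labels do not say how many animals went into a sample or whether any animal gave more than 1 of them. The p-values therefore cover the spread between the samples alone, which may be technical.

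The deposited values are scores from -2.12 to 3.74, of which 72.7% are below 0 and 0 are whole numbers, so the depth of each sample is unknown and differences are differences of scores, which may be scaled or batch-integrated, not of expression. A score has no common unit between genes, and levels are not compared between genes here. Samples held 66 to 190 cells. Untrained sample 2 stood apart: 1632 of its 2967 rows had a mean of 0, and the SD between its CD4-gated cells had a median over genes of 0.862, against 0.379 to 0.534 in the other samples. Of 331 well numbers in the cell names 221 occurred in 2 or more samples, so a cell was identified by well and sample together. No doublet caller was run on these scores, and which cells were removed before deposit is not given in the sources used here.

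CD4+ T cells help or restrain other immune cells. Regulatory T cells, defined by the factor Foxp3, limit inflammation and, in injured tissue, take part in repair, while follicular and other helper cells use costimulation and cytokines to direct B cells, macrophages and cytotoxic T cells. Maf is a transcription factor active in interleukin-10-producing, follicular helper and some regulatory T cells. Icos is an inducible costimulatory receptor, Nrp1 encodes neuropilin-1, a semaphorin receptor carried by many thymus-derived regulatory cells, Ikzf2 encodes Helios, a transcription factor of regulatory cells, and Tnfrsf18 encodes the costimulatory receptor GITR. Foxp3 and Il2ra were not analysed here, so no cell is called a regulatory T cell.

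The split genes chose the cells, and their values are a description with no test. Maf had mean scores in high cells of 0.354 and 1.02 in untrained samples 1 and 2 and of 0.188, 0.488 and 0.346 in trained samples 1 to 3. In low cells Maf lay at -0.131 and -0.341 in untrained and at -0.157, -0.223 and -0.203 in trained samples. The highest Maf score belonged to untrained sample 2, the sample with the widest spread. Icos lay at 0.255 and 0.608 in untrained and at 0.136, 0.422 and 0.131 in trained high cells. Nrp1 lay at 0.268 and 0.719 in untrained and at 0.511, 0.112 and 0.127 in trained high cells, with low cells between -0.291 and -0.149. Untrained sample 2 was again the highest for both receptors, although trained sample 1 was next for Nrp1 and trained sample 2 for Icos. Ikzf2 had a smaller range in high cells, 0.227 and 0.069 in untrained and 0.288, 0.024 and 0.227 in trained samples. Tnfrsf18 lay at 0.18 and 0.557 in untrained and at 0.233, 0.605 and 0.544 in trained high cells, and low cells ranged from -0.314 to 0.036.

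**Figure D1:**
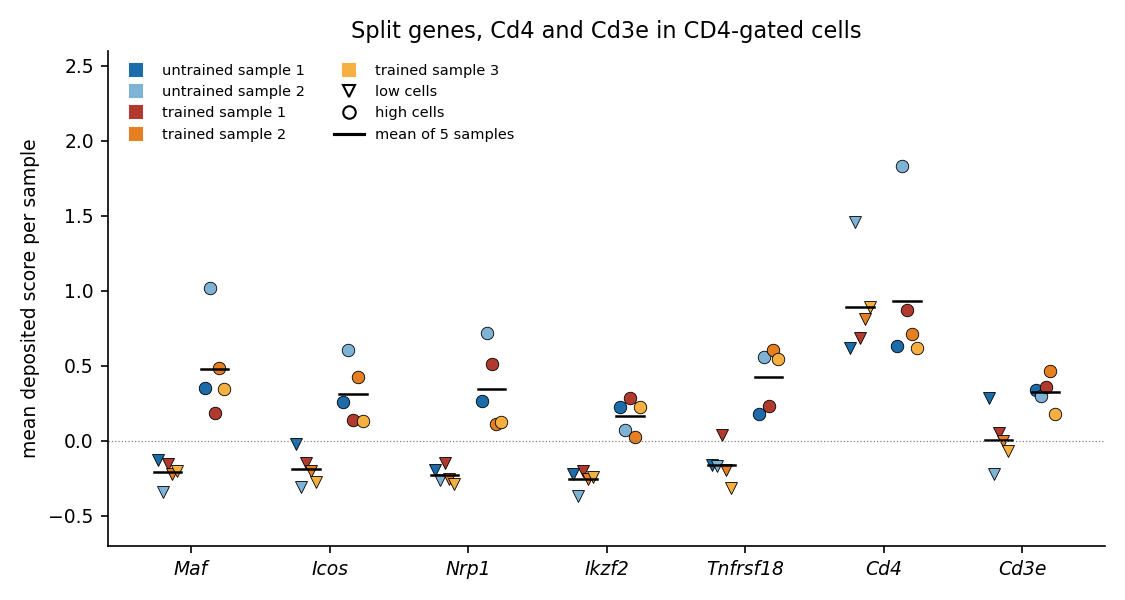
Mean deposited score per sample (vertical axis, no unit) of the 5 split genes, of Cd4 and of the CD3 epsilon gene Cd3e in low (triangles) and high (circles) CD4-gated cells. Colours mark the 5 samples and bars their mean; for Cd4 the 2 points of untrained sample 2, at 1.83 and 1.46, lie above all others, which run from 0.616 to 0.893.

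Cd4 itself, the coreceptor that set the gate, hardly differed between the classes, with means of 0.933 in high and 0.894 in low cells. Its mean in the gate was 1.69 in untrained sample 2 and 0.626 to 0.792 in the other 4 samples. The score of the split ran from 0.0114 to 1.72 in high cells (median 0.294) and from -0.557 to -0.00275 in low cells (median -0.213), with no gap at 0. The 3 cells just above the split lay at 0.0114, 0.0215 and 0.0244, the 3 just below at -0.00275, -0.0115 and -0.0225, and 38 of the 146 cells lay within 0.1 of it. At the Cd4 gate the nearest cells lay at 0.0119, 0.0179 and 0.0233 inside and at -0.00779, -0.00911 and -0.0124 outside.

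Few high cells had all 5 split genes above 0. That held for 4 of the 84 high cells, while 16 had 4 genes above 0, 23 had 3, 29 had 2 and 12 had 1. Among low cells 30 of 62 had none above 0, 27 had 1, 4 had 2 and 1 had 3. In high cells the share above 0 was 63.1% for Maf, 60.7% for Tnfrsf18, 53.6% for Nrp1, 47.6% for Icos and 40.5% for Ikzf2.

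Correlations among the 5 genes over cells were weak. Over the 146 cells, centred within sample, Pearson's r was 0.345 between Nrp1 and Ikzf2, 0.321 between Ikzf2 and Tnfrsf18, 0.201 between Nrp1 and Tnfrsf18, and 0.264 between Maf and Icos. The other 6 pairs ran from -0.085 for Icos and Ikzf2 to 0.146 for Maf and Nrp1. The cells come from only 5 samples, and each cell's genes share its depth, so these values describe the cells and carry no p. After removal of each cell's mean over all genes the 4 leading values were 0.299, 0.276, 0.137 and 0.221.

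When each gene was left out of the split, its own score differed between the classes made by the other 4. Nrp1 was higher in the high class by 0.368 ± 0.166 (SD, n = 5 samples) and Ikzf2 by 0.254 ± 0.0865, both in 5 of 5 samples. Tnfrsf18 was higher by 0.153 ± 0.112, also in 5 of 5 samples. Maf, at 0.263 ± 0.277, was higher in 3 of 5 samples and Icos, at 0.169 ± 0.213, in 4 of 5. The mean over all tested genes differed by 0.0837 to 0.0952 under these splits. The differences of Tnfrsf18 and Icos each exceeded that of the average gene by less than 0.1.

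The share of high cells among CD4-gated cells was 54.3% in untrained sample 1 (19 of 35 cells, 95% Wilson interval 38.2 to 69.5) and 60.7% in untrained sample 2 (17 of 28, 42.4 to 76.4). In the trained samples it was 56.3% (9 of 16, 33.2 to 76.9), 55.3% (21 of 38, 39.7 to 69.9) and 62.1% (18 of 29, 44.0 to 77.3). The intervals cover counting error only, and every sample's interval overlapped every other's. Trained samples had a mean share of 57.9% ± 3.68 (SD, n = 3) and untrained samples of 57.5% ± 4.55 (SD, n = 2), a difference of 0.361 percentage points (two-sided exact permutation p = 1 over 10 splits, where the smallest possible p is 0.1). The same split put 42 of 159 CD8-gated cells (26.4%) and 94 of 330 cells below both gates (28.5%) in the high class, a description only, since the genes were picked for that contrast.

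Over all CD4-gated cells the split genes are given by training as a description, with no test. Maf averaged 0.115 ± 0.0695 over trained samples (SD, n = 3) and 0.308 ± 0.249 over untrained ones (SD, n = 2), and Icos 0.0436 ± 0.0871 and 0.188 ± 0.0842. For both genes the mean of trained samples was lower, and untrained sample 2 was the highest sample, at 0.484 for Maf and 0.247 for Icos. Ikzf2 and Tnfrsf18 were higher in trained samples by 0.048 and 0.0569, and Nrp1 lower by a difference of -0.149. No sample order was common to the 5 genes: untrained sample 2 was highest for Maf, Icos, Nrp1 and Tnfrsf18 and lowest for Ikzf2.

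High and low cells were then compared over the 2918 genes that took no part in the gates or the split, by limma on the mean score per sample and class with sample as a block (10 means). These genes come from the same cells as the split and share each cell's overall level with it. The test called 28 genes (0.96% of those tested) at an adjusted p under 0.05, 19 higher in high cells (0.651%) and 9 lower (0.308%). Cd37, mtCo1 and Serinc3 had the largest differences among the higher genes, and A630089N07Rik among the lower ones. The whole table was shifted: 2272 of 2918 genes had a difference above 0, their median was 0.088, and 608 genes (20.8%) were higher and 71 (2.43%) lower at an unadjusted p under 0.05. The mean over all tested genes lay at 0.0828 in high cells (0.0326 to 0.136 over samples) and at -0.00293 in low cells (-0.0502 to 0.0684), and was higher in high cells in 5 of 5 samples. The part of that shift in the gene differences was not tested apart from centring each cell on its own mean. After centring 22 genes passed, 3 higher and 19 lower, of which 12 were among the 28, and the median difference was 0.0022. With each score divided by its gene's SD over all cells 0 genes passed (590 higher and 58 lower at an unadjusted p under 0.05; smallest limma adjusted p = 0.109). With the SD taken within the sample, an alternative chosen after seeing the data, 65 genes passed, 63 higher and 2 lower.

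Cd37, a tetraspanin of lymphocyte membranes, had the largest difference among the genes past the threshold on the higher side. In high cells it scored 0.168 and 0.618 in untrained and 0.739, 0.245 and 0.091 in trained samples. In low cells it scored -0.174 and -0.249 in untrained and -0.286, -0.173 and -0.27 in trained samples. All 5 high values lay above all 5 low values, which held for 154 of the 2918 genes (5.28%) on the higher side. Cd37 differed by 0.602 ± 0.106 (limma SE; adjusted p = 0.0287).

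Serinc3, a membrane protein of the serine incorporator family, also did not overlap. It lay at 0.403 and 0.43 in untrained and at 0.614, 0.254 and 0.261 in trained high cells, against -0.242 to -0.042 in low cells. The difference was 0.523 ± 0.0898 (limma, adjusted p = 0.0287). Ctsb, the lysosomal protease cathepsin B, lay at 0.431 and 0.193 in untrained and 0.643, 0.216 and 0.295 in trained high cells and at -0.2 to -0.049 in low cells. Trained sample 1 had the highest high-cell value for Cd37, Serinc3 and Ctsb alike. Ctsb differed by 0.466 ± 0.0902 (limma, adjusted p = 0.0323) and is abundant in macrophages and microglia, whose markers are described with the other lists.

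Vim, the intermediate filament gene vimentin, scored 0.259 and 0.773 in untrained and 0.465, 0.394 and 0.422 in trained high cells. Low cells lay in the narrow range of 0.028 to 0.096, below every high value. The difference of 0.401 ± 0.0878 passed (limma, adjusted p = 0.0403). mtCo1, a cytochrome oxidase subunit of the mitochondrial genome, was the only gene of the 28 encoded there. Its high cells lay at 0.769 and 1.22 in untrained and 0.536, 0.568 and 0.441 in trained samples, and its low cells at -0.157 and 0.483 and at 0.287, 0.07 and 0.054. High and low values of mtCo1 overlapped between samples, although high cells were above low cells within each of the 5. The difference was 0.561 ± 0.0988 (limma, adjusted p = 0.0287).

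The other named genes on the higher side had differences between 0.403 and 0.432 and were higher in 5 of 5 samples, which held for 536 of all tested genes (18.4%). They were Ly6e, an interferon-inducible surface protein (0.432), Ypel3 (0.425), Itm2b, an integral membrane protein (0.424), Cmtm7 (0.414), Gnas, the stimulatory G protein alpha subunit (0.407), Gimap3, a GTPase of lymphocyte survival (0.404), and Txnip, the thioredoxin-binding regulator of glucose uptake (0.403). Also past the threshold were Jak1, a kinase of cytokine receptors (0.394), Nhp2l1, a spliceosome protein (0.391), Rbm5, an RNA-binding splicing factor (0.385), Tmbim6 (0.384), Ltb, the cytokine lymphotoxin beta (0.381), Pml, the scaffold of nuclear bodies (0.377), and H3f3b, a histone H3.3 gene (0.373).

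**Figure D2:**
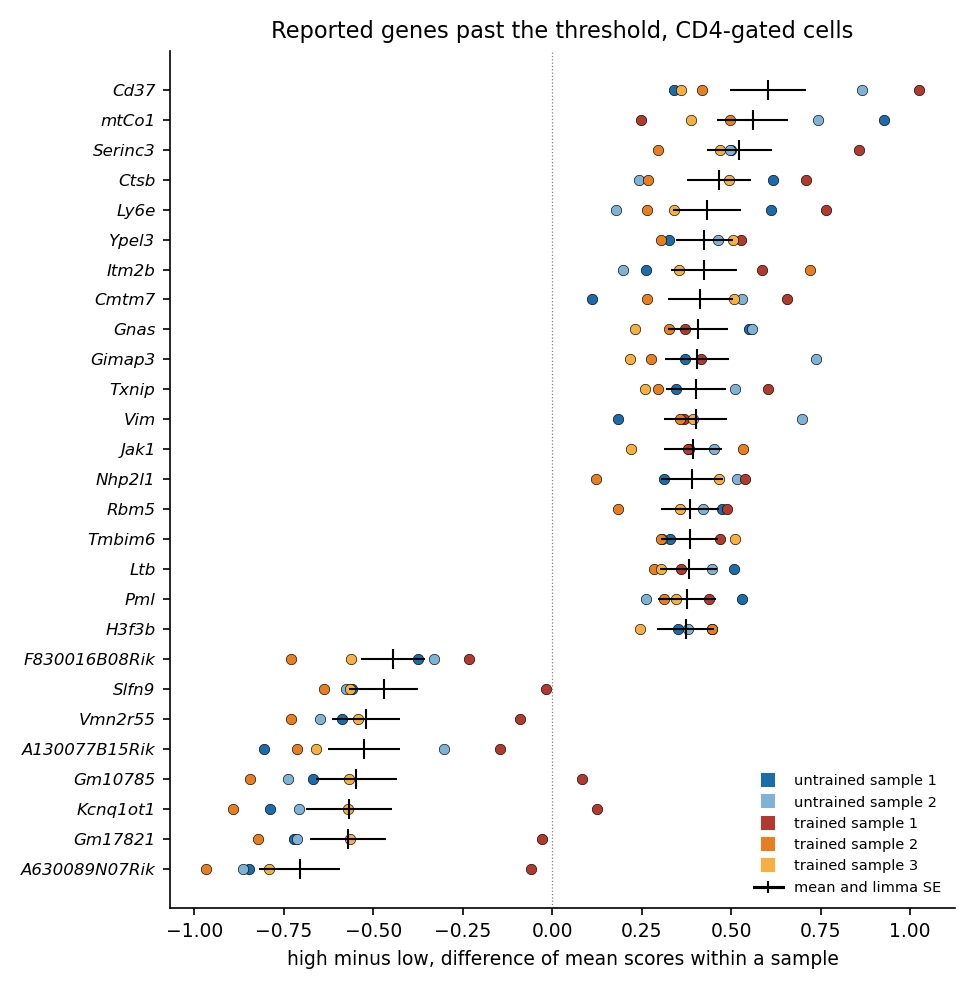
High minus low difference of mean scores (horizontal axis) for 27 of the 28 genes past the threshold, 1 point per sample coloured as in the key, with the mean over 5 samples (tick) and its limma standard error (bar). The 19 genes above were higher in every sample, and trained sample 1 (dark red) lies near 0, to the right of the other samples, for most of the 8 genes below.

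A630089N07Rik had the largest difference of the 9 lower genes, and Kcnq1ot1 was a further member. Kcnq1ot1 is a long noncoding RNA that silences an imprinted cluster, and A630089N07Rik carries only a clone name. A630089N07Rik scored -0.351 and -0.946 in untrained and -0.43, -0.379 and -0.196 in trained high cells. In low cells it scored 0.496 and -0.083 in untrained and -0.371, 0.589 and 0.596 in trained samples. The low cells of untrained sample 1 and of trained samples 2 and 3 thus lay far above 0, while in trained sample 1 the classes differed by only -0.0595. The difference over samples was -0.706 ± 0.113 (limma, adjusted p = 0.0287). Kcnq1ot1 scored -0.304 and -0.848 in untrained and -0.377, -0.341 and -0.077 in trained high cells, and 0.485, -0.14, -0.501, 0.551 and 0.493 in the same order in low cells. It was lower in high cells in 4 of 5 samples, trained sample 1 being the exception, with a difference of -0.567 ± 0.12 (limma, adjusted p = 0.0359).

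Gm17821 (-0.57), A130077B15Rik (-0.525), the vomeronasal receptor gene Vmn2r55 (-0.52), Slfn9 of the schlafen family (-0.471) and F830016B08Rik (-0.446) were lower in high cells in 5 of 5 samples, as were 52 of all tested genes (1.78%). Gm10785 (-0.547) was lower in 4 of 5, again with trained sample 1 as the exception. No gene of the 9 had separate ranges in the 2 classes. In all, 9 of 2918 genes (0.308%) had every high value below every low value.

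A minority of cells carried the high scores of A630089N07Rik and Kcnq1ot1. Their mean was above 0.5 in 18 of 62 low cells (29.0%) and in 4 of 84 high cells (4.76%). By sample, these were 4 low cells and 1 high cell in untrained sample 1, 2 and 0 in untrained sample 2, 0 and 0 in trained sample 1, 8 and 0 in trained sample 2, and 4 and 3 in trained sample 3. All these CD4-gated cells had a mean over all tested genes below 0, from -0.268 to -0.0267. Their mean of the T cell markers described below was also below 0, apart from a low cell of trained sample 2 at 0.092. In CD8-gated cells 32 of 117 low cells (27.4%) and 1 of 42 high cells (2.38%) were above 0.5. Across CD4-gated cells, centred within sample, the split score had r = -0.422 with the mean of the pair, 0.478 with the mean over all tested genes and -0.114 with the mean of the 41 spike-in RNAs. Each of the 5 split genes had a positive r with the mean over all genes, from 0.218 for Ikzf2 to 0.305 for Nrp1.

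**Figure D3:**
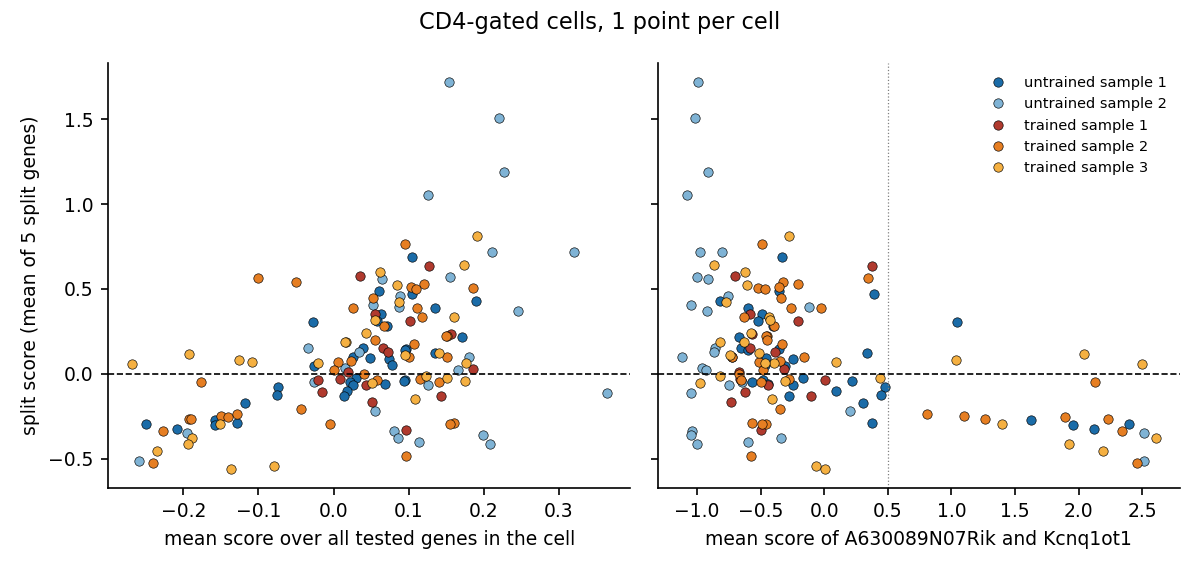
Split score (vertical axis, mean deposited score of the 5 split genes) of the 146 CD4-gated cells against the mean score over all tested genes in the cell (left) and against the mean score of A630089N07Rik and Kcnq1ot1 (right), 1 point per cell coloured by sample. The dashed line is the split at 0 and the dotted line the value of 0.5, to the right of which lie 22 cells, 18 of them low.

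The number of calls changed with the cells and samples in the fit. Without the cells above 0.5 for the pair, an alternative chosen after seeing the data, limma called 0 genes (186 higher and 42 lower at an unadjusted p under 0.05) and the median difference was 0.03, although all 19 higher and 9 lower genes kept their sign. A total of 0 genes passed without untrained sample 1 (366 and 55 at an unadjusted p under 0.05), untrained sample 2 (610 and 64), trained sample 2 (419 and 56) or trained sample 3 (480 and 60), and 151 passed without trained sample 1, the smallest sample.

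Over all cells of the gate, the genes most like the split score by correlation, centred within sample, were Srsf6, a splicing factor (r = 0.554), H2-D1, a class I histocompatibility antigen (0.464), Eif4g1, a translation initiation scaffold (0.461), Dnm2, dynamin 2 (0.449), and Ddx17, an RNA helicase (0.442), each over 146 cells. Their own r with the mean over all genes was 0.35, 0.599, 0.296, 0.361 and 0.333. Near the other end stood A630089N07Rik (r = -0.43) and Kcnq1ot1 (-0.407). Both had a stronger r with the mean over all genes than with the split score, at -0.793 and -0.798.

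The lists of known genes are read against all tested genes, of which 77.9% had a difference above 0 and 20.8% were higher at an unadjusted p under 0.05. The regulatory T cell list, without the split genes, had a median level with that of the macrophage and microglia markers (0.239 and 0.236), above those of the other lists. Of 35 listed genes 8 were tested, 7 of 8 had a difference above 0 with a median of 0.239 (0.154 after centring), 5 were higher at an unadjusted p under 0.05, and 0 passed over all genes. Capg, an actin-capping protein, scored -0.032 and 0.329 in untrained and 0.465, 0.039 and 0.488 in trained high cells. In low cells it scored -0.149 and 0.125 in untrained and 0.082, -0.093 and -0.206 in trained samples. The classes overlapped between samples, with high cells above low cells in each sample, and the difference was 0.306 ± 0.0945 (limma, adjusted p = 0.0975). Folr4, the folate receptor 4 of regulatory and follicular helper cells, differed by 0.281 in 4 of 5 samples. Hopx, a homeodomain protein, Cd44, the hyaluronan receptor of activated cells, and Tnfrsf1b, TNF receptor 2, differed by 0.264, 0.251 and 0.228 in 5 of 5 samples each (limma, adjusted p = 0.105, 0.0986 and 0.118). Ly6a, Gata3 and Il2rb, the interleukin-2 receptor beta chain, made up the rest, and Il2rb had a difference of -0.111.

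**Figure D4:**
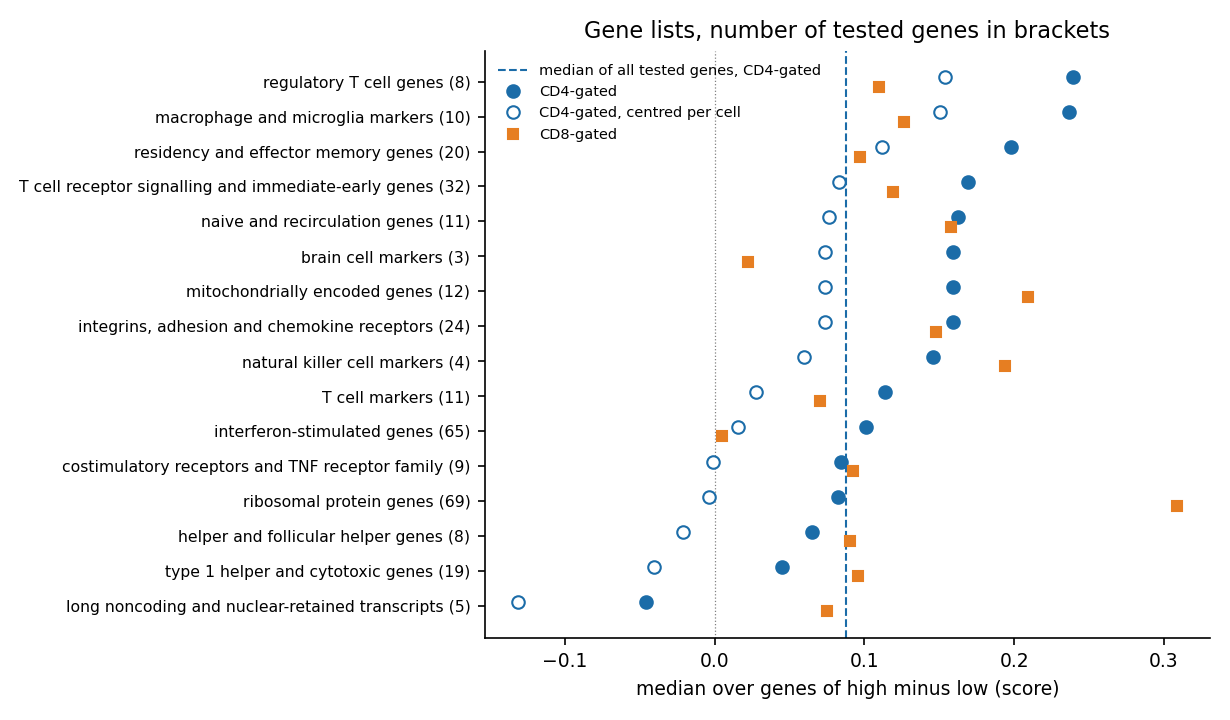
Median over the tested genes of each list of the high minus low score difference (horizontal axis) in CD4-gated cells (filled circles), in CD4-gated cells after each cell was centred on its mean (open circles) and in CD8-gated cells (squares). The dashed line at 0.088 is the median of all tested genes in CD4-gated cells, and the regulatory T cell list and the macrophage and microglia markers lie farthest above it, at 0.239 and 0.236.

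Helper and follicular helper genes had a median below that of all genes. Of 8 tested, 6 had a difference above 0, with a median of 0.0649 (-0.0208 after centring), and 2 were higher at an unadjusted p under 0.05. These were Il4ra, the interleukin-4 receptor (0.277), and Stat3, the factor downstream of interleukins 6 and 21 (0.174), while Cd84, an adhesion receptor of follicular helper cells, lay at -0.0942. Type 1 helper and cytotoxic genes had 18 of 19 differences above 0 but a median of 0.0453 (7 of 19 and -0.0405 after centring). Lamp1, a lysosomal membrane protein exposed on degranulation, had 0.406, whereas Tbx21, Eomes, Nkg7, Ccl5 and Klrd1 ranged from 0.0158 to 0.0659. Costimulatory and TNF receptor genes had 8 of 9 above 0 and a median of 0.0845 (4 of 9 and -0.00125 after centring). At an unadjusted p under 0.05, 2 of 9, Cd44 and Tnfrsf1b, were higher. In none of these 3 lists did a gene pass over all genes.

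Genes of residency and of recirculation had medians of the same sign. The residency and effector memory list had 17 of 20 differences above 0, a median of 0.198 (0.112 after centring) and 9 of 20 higher at an unadjusted p under 0.05. Vim passed, S100a10, an annexin partner, had 0.404 (limma, adjusted p = 0.0576), and Cd69, the early activation and retention receptor, had -0.0181. The naive and recirculation list had 10 of 11 above 0, a median of 0.162 (0.0766 after centring) and 4 of 11 higher at an unadjusted p under 0.05. S1pr1 and S1pr4, receptors for the egress signal sphingosine-1-phosphate, had 0.245 and 0.231, and Klf2, the factor that drives S1pr1, had 0.238, each in 5 of 5 samples. Integrins, adhesion molecules and chemokine receptors had 21 of 24 above 0, a median of 0.159 (0.0736 after centring) and 11 of 24 higher at an unadjusted p under 0.05. Of these, Ly6e passed and Cd47, the signal against phagocytosis, had 0.243. After centring no gene of these lists passed, Vim and Ly6e included.

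T cell receptor signalling and immediate-early genes had 29 of 32 differences above 0 with a median of 0.169 (0.0833 after centring), and 14 of 32 were higher at an unadjusted p under 0.05. Nfkbia, the inhibitor of NF-kappaB, scored 0.25 and 0.451 in untrained and 0.441, 0.308 and 0.332 in trained high cells, and -0.285, 0.095, 0.359, -0.179 and -0.096 in the same order in low cells. Low cells of trained sample 1 were the exception, at the level of high cells. Nfkbia differed by 0.378 ± 0.0869 (limma, adjusted p = 0.0519), Zfp36, which destabilises cytokine messages, by 0.355 ± 0.0832 (limma, adjusted p = 0.0519) and Dusp2, a phosphatase of activated kinases, by 0.323 ± 0.0803 (limma, adjusted p = 0.0552). None of the 32 passed over all genes.

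Interferon-stimulated genes had 55 of 65 differences above 0, a median of 0.101, 18 higher and 2 lower at an unadjusted p under 0.05, and Ly6e past the threshold. After centring the median was 0.0155, 36 of 65 were above 0, against 1476 of all 2918 tested genes, and Ly6e no longer passed. Ly6e scored 0.331 and 0.622 in untrained and 0.621, 0.211 and 0.163 in trained high cells, against -0.281, 0.444, -0.144, -0.055 and -0.177 in the same order in low cells. Only the low cells of untrained sample 2 lay among the high values. The difference was 0.432 ± 0.0952 (limma, adjusted p = 0.0403). Irgm1, an interferon-inducible GTPase, had 0.363 ± 0.0853 (limma, adjusted p = 0.0519) and Stat2, a subunit of the interferon-activated complex, 0.317 (limma, adjusted p = 0.0661). Gbp2, a guanylate-binding protein, and Slfn8 had -0.237 and -0.252.

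Ribosomal protein genes had 54 of 69 differences above 0 and a median of 0.0823 (-0.00348 after centring), close to all genes, and 0 of 69 passed. Rps2, of the small subunit, had 0.316 and Rps25 -0.192. Mitochondrially encoded genes had 11 of 12 above 0, a median of 0.159 and 4 of 12 higher at an unadjusted p under 0.05, with mtCo3 at 0.337 and mtAtp6 at 0.327 behind mtCo1. The list named for long noncoding and nuclear-retained transcripts had 5 tested genes, not all of them noncoding. Neat1 and Malat1, which stay in the nucleus, had 0.324 and 0.302, opposite in sign to A630089N07Rik and Kcnq1ot1. Lars2, a protein-coding member of the list, had -0.0455.

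T cell markers did not set the classes apart as a list. Of 11 tested, 10 had a difference above 0, the median was 0.114 (0.028 after centring) and only Cd3e was higher at an unadjusted p under 0.05. Cd3e scored 0.34 and 0.296 in untrained and 0.356, 0.467 and 0.177 in trained high cells, against 0.283, -0.224, 0.05, 0.001 and -0.072 in the same order in low cells. High cells were above low cells within every sample, and the difference was 0.32 ± 0.0876 (limma, adjusted p = 0.0661). The mean of the 11 markers was above 0 in 61 of 84 high cells (72.6%) and 31 of 62 low cells (50%). Restricted to those cells, limma called 0 genes (115 higher and 55 lower at an unadjusted p under 0.05), with a median difference of 0.0205, and 4 of the 9 lower genes kept their sign.

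Markers of macrophages and microglia had higher mean scores in high cells. All 10 tested markers had a difference above 0, with a median of 0.236 (0.151 after centring). At an unadjusted p under 0.05, 7 of 10 were higher, and Ctsb passed, although none of the 10 markers passed after centring. Their mean level was 0.117 in high cells (-0.012 to 0.394 over samples) and -0.131 in low cells (-0.212 to -0.0858). The defining genes C1qb, a complement subunit, Apoe, the lipid carrier, and Tyrobp, a signalling adaptor of myeloid and natural killer cells, had 0.168, 0.293 and 0.244. The median over cells of the marker mean was -0.0536 in high and -0.14 in low cells. Cells with a mean of these markers above 0.5 made up 8 of 84 high cells (9.52%) and 2 of 62 low cells (3.23%). Of the 8 high cells 3 were among the 9 high cells of trained sample 1 and 3 among the 17 of untrained sample 2. All 10 cells above 0.5, high and low, had a mean of the T cell markers below 0, from -0.559 to -0.0595. Without those 10 cells limma called 0 genes (569 higher and 68 lower at an unadjusted p under 0.05), the smallest adjusted p was 0.0589 and the median difference was 0.0911. Of natural killer cell markers 4 were tested, with a median of 0.146. Tyrobp and Fcer1g, at 0.244 and 0.225, are also among the macrophage markers, while Nkg7 and Eomes lay at 0.0659 and 0.0158. Of brain cell markers 3 were tested, with a median of 0.159 and Cnp, a myelin enzyme, at 0.244. B cell markers were not analysed here.

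The same split in CD8-gated cells (42 high, 117 low) asked whether these differences belong to the CD4 gate. There limma called 12 of 2918 genes (0.411%), 2 higher (0.0685%) and 10 lower (0.343%), and the median difference over all genes was 0.0817, with 394 genes higher (13.5%) and 70 lower (2.4%) at an unadjusted p under 0.05. The 2 higher genes were Rps10, a ribosomal protein (0.505), and Sec11a, a signal peptidase subunit (0.532), which had 0.241 and 0.176 in CD4-gated cells. Of the 28 genes called in CD4-gated cells 8 were called in both gates, 28.6% of the CD4-gated and 66.7% of the CD8-gated calls, and all 8 were lower. A630089N07Rik differed by -0.663 in CD8-gated and by -0.706 in CD4-gated cells, and Kcnq1ot1 by -0.637 and -0.567. Of the 28, 27 had the same sign in CD8-gated cells. Of the 19 higher genes 10 were also higher there at an unadjusted p under 0.05. Both contrasts were shifted, with 77.9% of all tested genes above 0 in CD4-gated and 73.9% in CD8-gated cells. Agreement in sign is therefore not read as a result about the called genes.

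**Figure D5:**
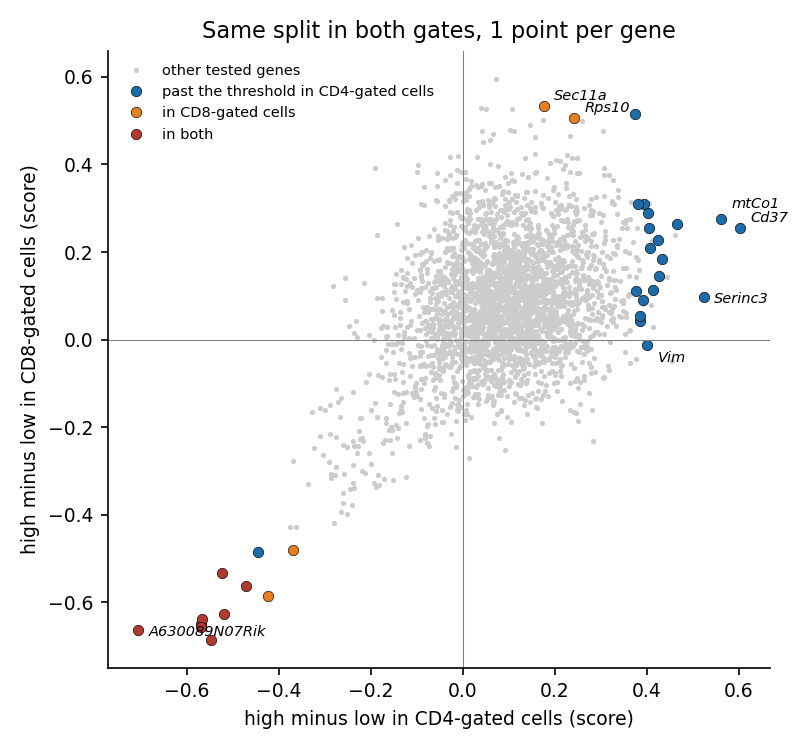
High minus low score difference per gene in CD4-gated cells (horizontal axis) and in CD8-gated cells (vertical axis) for the 2918 tested genes, with genes past the threshold coloured by the gate in which they passed. The 8 genes called in both gates lie at the lower left, and Vim, at 0.401 and -0.0128, is the only gene called in CD4-gated cells with opposite signs.

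The difference between the gates was itself tested over 20 means, with 95% intervals from limma. In that interaction limma called 0 genes (140 at an unadjusted p under 0.05, 4.8%, of which 79, or 2.71%, had the larger difference in CD4-gated and 61, or 2.09%, in CD8-gated cells), and the smallest adjusted p was 0.865. No gene is therefore called particular to CD4-gated cells. Stat6, the factor downstream of interleukin 4, had the smallest p, with 0.283 in CD4-gated and -0.231 in CD8-gated cells, a difference of 0.515 (interval 0.264 to 0.765). Serinc3 differed between gates by 0.425 (0.156 to 0.694), Vim by 0.413 (0.0828 to 0.744) and Cd37 by 0.348 (0.0373 to 0.658), intervals taken gene by gene without adjustment. Folr4 and Capg of the regulatory list had 0.442 (0.152 to 0.733) and 0.39 (0.0852 to 0.696), with negative values of -0.162 and -0.0845 in CD8-gated cells. In the other direction, Rps25, Rpl35 and Rpl31 had -0.585, -0.481 and -0.43. Of 69 ribosomal protein genes 67 had a lower difference in CD4-gated cells, as did 1374 of all 2918 tested genes. For these 69 the median between gates was -0.236. Over samples their mean difference ran from 0.0671 to 0.759 in CD8-gated cells, with 5 to 12 high cells per sample. In CD4-gated cells it ran from -0.055 to 0.252 and was above 0 in 3 of 5 samples.

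By list, the medians in CD8-gated cells were 0.11 for the regulatory T cell list, 0.00491 for interferon-stimulated genes and 0.309 for ribosomal protein genes, against 0.239, 0.101 and 0.0823 in CD4-gated cells. The 2 gates contain different cells of the same samples. Of 65 interferon-stimulated genes 35 had a difference above 0 in CD8-gated cells, against 2157 of all 2918 tested genes. Of 69 ribosomal protein genes 68 did, and 51 were higher at an unadjusted p under 0.05, against 394 of all 2918. Macrophage markers were above 0.5 in 1 of 42 high and 4 of 117 low CD8-gated cells.

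Training was compared within each class. In high CD4-gated cells limma on 5 means called 0 genes (154 at an unadjusted p under 0.05, 5.28%, of which 18 (0.617%) were higher and 136 (4.66%) lower in trained samples, and 8 higher and 9 lower without untrained sample 2), and in low cells 0 genes (74 at an unadjusted p under 0.05, 2.54%, with 21, or 0.72%, higher and 53, or 1.82%, lower). The interaction of split and training called 0 genes (135 at an unadjusted p under 0.05, 4.63%, with 48, or 1.64%, above and 87, or 2.98%, below 0). Without untrained sample 1, which leaves untrained sample 2 alone on its side and assumes that it varies like the trained ones, 47, 1 and 10 genes passed, and without trained sample 2 the interaction called 2.

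In high cells the smallest p belonged to Ets1, a transcription factor of lymphocytes, which scored 0.284 and 0.834 in untrained and -0.00878, 0.193 and -0.0507 in trained samples. Both untrained values lay above all trained ones, and untrained sample 2 was the higher. Ets1 differed by -0.515 ± 0.14 (limma, adjusted p = 0.908). mtCo1 scored 0.769 and 1.22 in untrained and 0.536, 0.568 and 0.441 in trained high cells, a difference of -0.482 that did not pass either (limma, adjusted p = 0.908). Ier2, an immediate-early gene, differed by -0.475, and Tmem258, Atp5j, a subunit of ATP synthase, and Orai1, the calcium channel of T cell activation, by 0.352, 0.347 and 0.318 with the same adjusted p.

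In low cells Cd2, an adhesion receptor of T cells, scored -0.384 and -0.188 in untrained and 0.363, 0.089 and 0.196 in trained samples, a difference of 0.502 ± 0.135 (limma, adjusted p = 0.994). The ranges did not overlap in low cells. In high cells they did, with 0.131 and 0.902 in untrained and -0.25, 0.378 and 0.268 in trained samples. The difference of the 2 contrasts for Cd2 was -0.886 (limma, adjusted p = 0.921). Hdac1, a histone deacetylase, scored 0.0806 and 0.679 in untrained and -0.327, -0.216 and -0.185 in trained low cells. It differed by -0.622 ± 0.166 in low cells (limma, adjusted p = 0.994), and its contrast differed between classes by 0.78 (limma, adjusted p = 0.921).

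By list, the regulatory T cell genes had a median difference between trained and untrained samples of -0.0322 in high and -0.0508 in low cells, against -0.0345 and -0.0149 over all tested genes. T cell markers had a median of -0.239 in high cells, where 5 of 11 were lower in trained samples at an unadjusted p under 0.05 (4.66% of all tested genes, or 9 of 2918 without untrained sample 2), and of 0.0437 in low cells. Interferon-stimulated genes had -0.0419 and -0.0739, and macrophage markers 0.0705 and -0.000987. In no list did a gene pass in either class.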

How the data were processed

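Single CD3+ T cells of 5 samples (2 untrained, 3 trained) were read from the deposited table of 2926 mouse genes and 41 spike-ins in 692 cells, each cell being placed in a sample through the number at the end of its name, per the labels. Per the submitters' processing notes Cell Ranger was used, with no version given. No genome build, normalisation or integration is given in the sources used here. By its values the deposited table holds a score per gene and cell, not counts, so depth and the precision it gives are unknown. A second table with part of the same cells was not used.

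Mean scores per gene, sample and class were fitted with limma 3.58.1 (R 4.3.3), with empirical Bayes moderation and Benjamini-Hochberg adjustment over 2918 genes at a threshold of 0.05. The blocks were sample for high against low, sample within gate for the test between gates, and none for training. Cd4, Cd8a, Cd8b1 and the 5 split genes were left out. Shares were compared by exact permutation over 10 splits. Tests were two-sided. The fit was also run on simulated scores with independent noise per gene and no level shared by the genes of a cell or sample. That run cannot show how the fit behaves under the shift of the whole table. Named genes were up to 12 past the threshold in each direction with the same sign in every sample, up to 3 per gene list by p, 3 per direction in other comparisons, and the 5 most like the split score. Other genes of the lists and of the 28 past the threshold were named after their values were seen. Some genes that the rules name are not reported here. The members and lists were chosen with earlier results of these data known, and the pattern for ribosomal protein genes was corrected after the files were opened, to leave out kinases. Alternatives were other scalings, gates, splits, summaries, cell filters and left-out samples. Figures were drawn with matplotlib 3.10.9 in Python 3.11.15.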

Additional observations from a re-analysis of the deposited data

Results flagged for a closer look

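The 5 within-sample differences between high and low CD4-gated cells were examined for a sample far from the others in 64 genes, and 3 had one; chance gives about 1 in 20. For A630089N07Rik, trained sample 1 had a difference of -0.0595, whereas the other 4 samples lay between -0.968 and -0.792. For Slfn9, trained sample 1 had -0.0182 and the other samples -0.637 to -0.561. Trained sample 1 held 0 CD4-gated cells above 0.5 for A630089N07Rik and Kcnq1ot1, whose part in these differences was not tested. For Klf2, trained sample 2 had 0.0505 and the other samples 0.272 to 0.312.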

How the results depend on the processing

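No paired analysis was possible because the replicate numbers only name the samples and pair no trained with an untrained sample. The high against low fit had sample as a block, and without that block 60 genes passed, 55 higher and 5 lower.

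Of the 28 genes past the threshold between high and low CD4-gated cells, all 19 higher ones kept their sign under all 25 alternatives, and all 9 lower ones under 24, the exception being only cells with a T cell marker mean above 0. The count itself was 0 with scores divided by their SD, a Cd4 gate at 0.25, the split without Maf, without macrophage-marker cells, in cells with a T cell marker mean above 0, and, chosen after seeing the data, without cells high in A630089N07Rik and Kcnq1ot1, centred or not. It was 188 with cells within 0.1 of the split left out, 63 without Icos and 58 without Nrp1 in the split, 3 with medians over cells, 146 weighted by cells, 79 with genes of low SD left out, 65 with scores divided by SD within each sample, and 0 to 151 when 1 sample was left out. In CD8-gated cells the count was 0 under SD scaling over all cells or within each sample and with a split at the median. It was also 0 with a split without Tnfrsf18, in T cell marker cells and with medians over cells. Without cells high in A630089N07Rik and Kcnq1ot1 it was 0, centred or not. The split without Maf, Icos and Nrp1 gave 88, 37 and 109, a variance trend 30, and leaving out 1 sample 7 to 17.

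For training, 1 sample left out gave 0 to 47 genes in high cells, 0 to 1 in low cells and 0 to 10 for the interaction. Medians over cells gave 2 in high cells and a variance trend 1 in low cells. The trained minus untrained share turned to -0.682 percentage points at the Cd4 gate of 0.25, -2.58 for a split at the median, -3.78, -7.27 and -9.84 without Icos, Ikzf2 and Tnfrsf18, -2.81 without macrophage-marker cells, -9 in T cell marker cells, and ran from -2.85 to 3.57 when 1 sample was left out, with exact permutation p-values of 0.2 or more.

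Single genes changed sign as follows. Nkg7 was at -0.0199 centred, -0.00774 split at the median, -0.0158 without Ikzf2 and -0.0313 in T cell marker cells. Without cells high in A630089N07Rik and Kcnq1ot1, here called pair-high cells, Nkg7 was at -0.0677 uncentred and -0.0985 centred. Mbp was at -0.00368 without Ikzf2, -0.0589 in T cell marker cells, and -0.011 and -0.0418 without the pair-high cells. Cd5 was at -0.0364 without Tnfrsf18, -0.0182 in T cell marker cells, and -0.0098 and -0.0406 without the pair-high cells. In the last 3 settings Cd84 was at 0.0676, 0.102 and 0.0708. In T cell marker cells Gm17821 was at 0.013, Vmn2r55 at 0.00567, Kcnq1ot1 at 0.0274, Cd27 at -0.0297 and Bsg at -0.0255. Stat4 was at -0.0133 centred without the pair-high cells. The cause of these changes was not tested. The missing counts leave unknown how depth limits any of these values.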
